A study of Mus musculus with 13 samples.

Results

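Transcripts of 4 Ly6 surface antigens, Ly6a, Ly6c1, Ly6c2 and Ly6e, were followed in T cells purified from B16-F10 melanomas. The 4 genes were chosen by symbol from the 12963 rows of the table, and they had been proposed on the strength of their measured levels in these libraries. Their values and differences are therefore given as a description, without p-values. B16-F10 is a mouse melanoma line, here implanted subcutaneously into the Foxp3-EGFP-DTR strain. Its endogenous Foxp3 gene drives both EGFP and the human diphtheria toxin receptor, so diphtheria toxin (DTx) kills Foxp3-expressing regulatory T (Treg) cells. All 13 libraries came from mice of this genotype, 8 to 14 weeks of age. Tumors were taken 16 or 18 days after implantation, since the sources used here differ on the day. The groups were EGFP+ Treg cells of PBS-treated mice (Treg PBS, n = 3), EGFP- CD4 conventional T (Tconv) cells of the same treatment (CD4 PBS, n = 2), CD8 T cells likewise (CD8 PBS, n = 2), and CD4 Tconv and CD8 T cells of DTx-treated mice (CD4 DTx and CD8 DTx, n = 3 each). DTx-treated mice without the receptor were not analysed here, so an effect of the toxin itself and an effect of losing Treg cells cannot be told apart. The replicates are described as biological ones isolated on independent days, though the labels do not tie a library to a mouse or a day.

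Ly6 proteins are small cell surface proteins with a disulfide-rich LU domain, held in the outer leaflet of the membrane by a glycosylphosphatidylinositol (GPI) anchor. Ly6a encodes Sca-1, known as a stem cell antigen and carried by activated and memory T cells. Ly6c1 and Ly6c2 are neighbouring copies that encode the Ly-6C antigen, used to sort monocytes and memory or effector T cells. Ly6e encodes thymic shared antigen 1, found on immature and activated lymphocytes. Several genes of the family are inducible by interferons.

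The near identity of Ly6c1 and Ly6c2 bears on every value below, because the authors counted only reads that mapped to 1 place. Among the GENCODE M21 transcripts (GRCm38) the lowest-numbered coding one is 844 bases long for Ly6c1 and 822 bases long for Ly6c2, and each has 396 coding bases, or 131 codons before the stop. The coding sequences differ at 9 bases and are 97.7% identical, with an identical run of up to 188 bases. Most of the differences, 6 of the 9, lie in the first 75 coding bases. The untranslated parts of the transcripts were not aligned. These 75 bases are shown because no other coding stretch of that length held more differences, and capitals mark the bases that differ:
Ly6c1: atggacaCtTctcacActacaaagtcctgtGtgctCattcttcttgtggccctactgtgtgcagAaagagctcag
Ly6c2: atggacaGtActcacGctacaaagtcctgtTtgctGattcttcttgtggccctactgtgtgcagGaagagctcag

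Of all runs of 50 bases in the transcripts of Ly6c1, 32.8% also occurred in transcripts of another gene, and 21.5% occurred in Ly6c2. For Ly6c2 the share was 31.2%, with 30.8% in Ly6c1. Ly6a shared 19.0% of its runs of 50 bases, most of them with Ly6c1, and Ly6e shared 0. With runs of 100 bases the shares fell to 10.1% for Ly6c1, 14.9% for Ly6c2 and 1.45% for Ly6a, so the loss depends on the read length, which was not given in the sources used here. Reads from shared stretches drop out of both copies, so the 2 Ly6c values count only the reads that tell the copies apart. The coding sequence of Ly6a was 82.0% identical to that of Ly6c1 and 86.4% identical to that of Ly6i, whereas Ly6e was between 50.5% and 53.8% identical to the other 3.

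The regions before the start sites were compared as well. Each copy had 2 RefSeq promoter windows (GRCm38.p6, minus strand), which end shortly after the start. The pair shown matched at 208 of 334 aligned positions (62.3%), and the other pairings at 38.2% to 50.5%. Gaps count as differences here, whereas the coding alignment held none, so these values cannot be set against the 97.7% above. The windows shown lie at chr15:75048788-75049087 for Ly6c1 and at chr15:75111922-75112221 for Ly6c2. They are shown because the expression of the 2 copies went apart, and capitals mark the only match to the motifs searched:
Ly6c1: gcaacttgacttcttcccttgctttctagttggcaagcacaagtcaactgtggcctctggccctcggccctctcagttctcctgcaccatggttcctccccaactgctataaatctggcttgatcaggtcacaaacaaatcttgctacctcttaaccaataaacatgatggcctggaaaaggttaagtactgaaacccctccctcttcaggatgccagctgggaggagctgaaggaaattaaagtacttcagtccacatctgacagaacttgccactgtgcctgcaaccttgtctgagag
Ly6c2: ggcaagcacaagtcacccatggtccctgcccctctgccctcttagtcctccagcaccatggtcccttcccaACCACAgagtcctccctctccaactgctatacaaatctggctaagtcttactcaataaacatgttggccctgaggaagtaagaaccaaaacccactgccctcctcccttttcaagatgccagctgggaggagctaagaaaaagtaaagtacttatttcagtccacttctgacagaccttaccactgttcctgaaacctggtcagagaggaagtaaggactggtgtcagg

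The motifs, searched on both strands, were the interferon-gamma element GAS (TTCNNNGAA), an interferon-stimulated response element core (GAAANNGAA), a T-box motif (TCACACCT) and a RUNX motif (TGTGGT). The Ly6c2 window held 1 RUNX match, on the reverse strand, and the Ly6c1 window held 0 matches. Among 32851 windows of the same length, 8.30% held the GAS motif, 8.56% the response element core, 1.28% the T-box motif and 16.8% the RUNX motif. Windows of Ly6a and Ly6e were not analysed here.

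The values below are normalized reads, whole read counts divided by a factor for each library, in which 1 read is worth between 0.661 and 1.37. Libraries held between 15947556 and 34140486 reads, and 3 reads, taken as the detection floor, came to between 1.98 and 4.10 normalized reads. The lineage transcripts went with the labels. Foxp3 was between 1178 and 1896 in Treg PBS and at most 12.1 elsewhere. Cd4 was between 10595 and 32503 in the Treg and CD4 libraries and at most 413 in the CD8 libraries, and Cd8a was between 23475 and 48330 in the CD8 libraries and at most 1302 in the others. In such bulk samples fewer cells of a type and less RNA per cell cannot be told apart.

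Ly6a, which encodes Sca-1, was low in both Tconv populations of Treg-sufficient tumors and high in the other 3 groups. The Treg PBS libraries held 86961, 48092 and 37655 normalized reads. Levels were 10939 and 6132 in CD4 PBS, and only 3517 and 2189 in CD8 PBS. After DTx the CD4 libraries held 87497, 75971 and 51484. The CD8 DTx libraries held 56334, 46216 and 24801. The lowest library among Treg PBS, CD4 DTx and CD8 DTx was thus above the highest of the PBS-treated Tconv groups.

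Group means of Ly6a were 57569 ± 25983 in Treg PBS (SD, n = 3), 8536 ± 3399 in CD4 PBS (n = 2), 2853 ± 939 in CD8 PBS (n = 2), 71650 ± 18391 in CD4 DTx (n = 3) and 42450 ± 16100 in CD8 DTx (n = 3). The mean of Treg PBS was 6.74 times that of CD4 PBS, and DTx means were 8.39 times the PBS mean in CD4 cells and 14.9 times in CD8 cells. On the log2(value + 1) scale these differences were 2.72 (SE 0.44), 3.09 (SE 0.44) and 3.85 (SE 0.44). Ordered by mean, CD4 DTx, Treg PBS and CD8 DTx overlapped their neighbours, while CD8 DTx lay above CD4 PBS and CD4 PBS above CD8 PBS with no overlap. In PBS-treated mice Ly6a was lower in CD8 than in CD4 cells, with means 2.99 times apart and a log2 difference of -1.56 (SE 0.48).

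**Figure D1:**
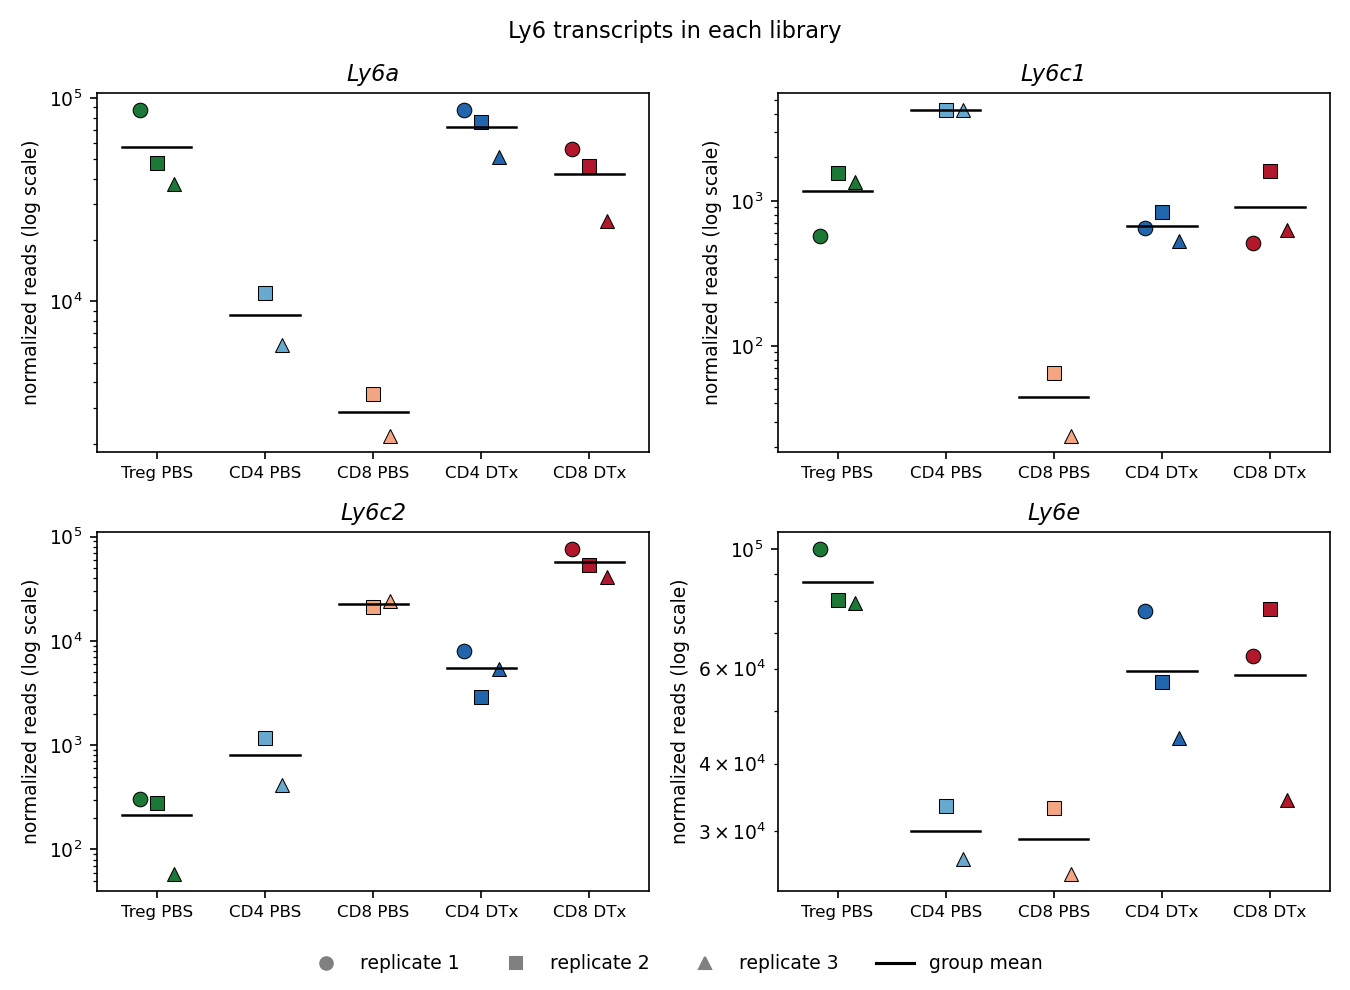
Normalized reads (vertical axes, log scale) of Ly6a, Ly6c1, Ly6c2 and Ly6e in the 13 libraries of 5 groups, with the symbol giving the replicate number and the line the group mean. Ly6a and Ly6e were above both PBS-treated Tconv groups in all Treg PBS, CD4 DTx and CD8 DTx libraries, Ly6c1 was highest in CD4 PBS (4210 and 4249), and Ly6c2 was highest in the CD8 groups.

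Ly6c1 went opposite ways in CD4 and CD8 cells. In CD4 PBS it was at 4210 and 4249 normalized reads, the highest of all groups. In CD4 DTx it was at 649, 844 and 531, so all 3 libraries were below both controls. In CD8 PBS it was at 64.4 and 24.0, which rested on 53 and 18 reads and was above the floor. In CD8 DTx it was at 512, 1596 and 633, so all 3 libraries were above both controls. Treg PBS libraries held 572, 1553 and 1357, in the range of the DTx groups.

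The mean of Ly6c1 in CD4 PBS (4230 ± 27.3, n = 2) was 6.27 times that in CD4 DTx (674 ± 158, n = 3). The mean in CD8 DTx (913 ± 594, n = 3) was 20.7 times that in CD8 PBS (44.2 ± 28.6, n = 2). The log2 differences between DTx and PBS were -2.67 (SE 0.56) in CD4 and 4.31 (SE 0.56) in CD8 cells, and the difference between them was -6.99 (SE 0.79). In PBS-treated mice the mean in CD4 cells was 95.7 times that in CD8 cells (log2 difference of CD8 to CD4 -6.71, SE 0.61). After DTx the CD4 and CD8 libraries overlapped, and the log2 difference was 0.28 (SE 0.50). Treg PBS lay below CD4 PBS, with means 3.64 times apart and a log2 difference of -1.99 (SE 0.56).

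Ly6c2, the copy known from inflammatory monocytes, natural killer cells and memory CD8 T cells, followed the CD8 lineage. CD8 PBS libraries held 21307 and 24135 normalized reads, and CD8 DTx libraries held 76839, 53274 and 40927. CD4 PBS libraries held 1178 and 419, and CD4 DTx libraries held 8053, 2887 and 5406. Treg PBS libraries were lowest, at 306, 282 and 57.7. Every group lay apart from its neighbours in the order CD8 DTx, CD8 PBS, CD4 DTx, CD4 PBS and Treg PBS.

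Means of Ly6c2 were 57013 ± 18246 in CD8 DTx (n = 3), 22721 ± 1999 in CD8 PBS (n = 2), 5449 ± 2583 in CD4 DTx (n = 3), 799 ± 536 in CD4 PBS (n = 2) and 215 ± 137 in Treg PBS (n = 3). CD8 cells thus held 28.4 times the mean of CD4 cells in PBS-treated mice and 10.5 times after DTx. DTx and PBS means were 6.82 times apart in CD4 cells, a log2 difference of 2.83 (SE 0.67), and 2.51 times apart in CD8 cells, a log2 difference of 1.28 (SE 0.67). The difference between these log2 values was 1.55 (SE 0.95). Against Treg PBS the mean was 25.3 times higher in CD4 DTx and 265 times higher in CD8 DTx. CD4 PBS was 3.71 times Treg PBS, a log2 difference of Treg PBS to CD4 PBS of -2.03 (SE 0.67).

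**Figure D2:**
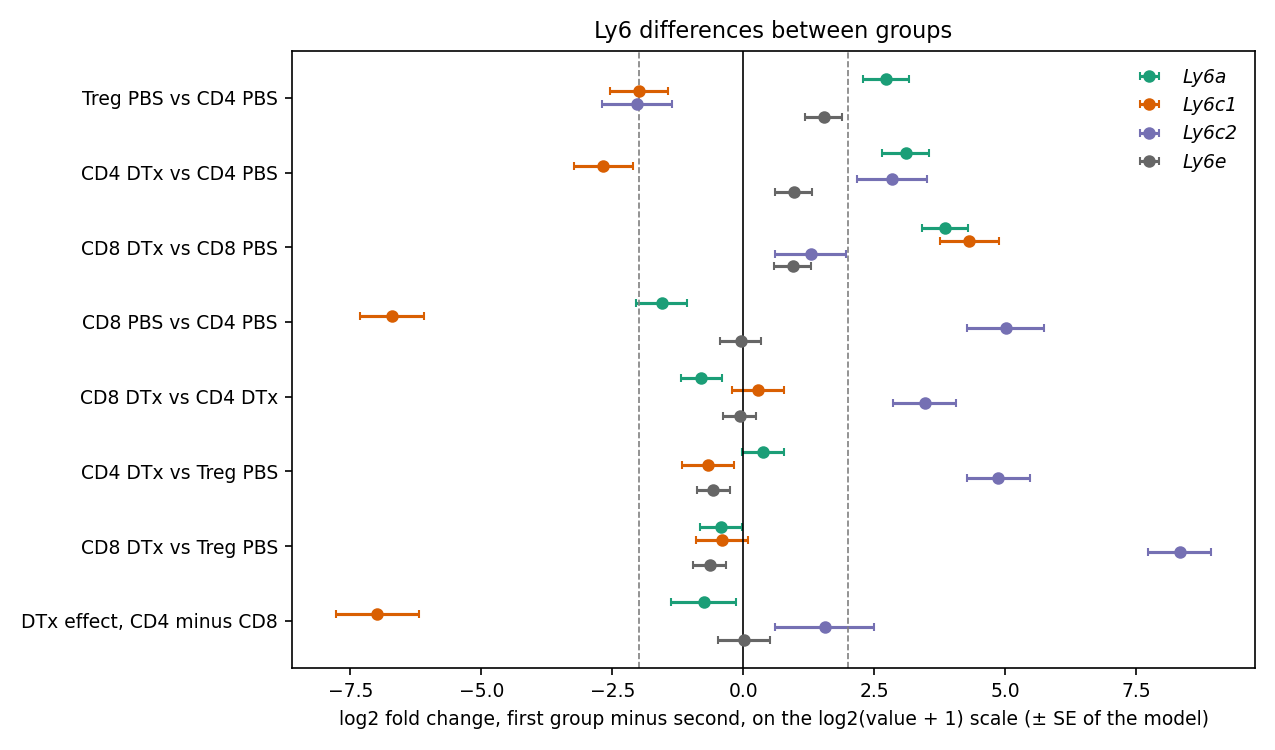
Log2 difference of each Ly6 transcript (horizontal axis, first group minus second on the log2(value + 1) scale, bars are the SE of the model) in 7 comparisons of groups and, last, the DTx effect in CD4 minus that in CD8 cells. Dashed lines mark the 4-fold threshold. Ly6a lay at 2.72, 3.09 and 3.85 in the first 3 comparisons, Ly6c1 at -2.67 and 4.31 for DTx in CD4 and CD8 cells.

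Within CD4 cells the 2 Ly6c copies exchanged places in the reads counted. Ly6c1 made up 78.1% and 91.0% of the reads of both copies in CD4 PBS, but 7.46%, 22.6% and 8.94% in CD4 DTx. In Treg PBS its share was 65.2%, 84.7% and 95.9%, on the side of CD4 PBS. In CD8 cells Ly6c2 dominated in all libraries, and the Ly6c1 share was 0.301% and 0.0993% in CD8 PBS and 0.662%, 2.91% and 1.52% in CD8 DTx. The share does not depend on library size. The lowest-numbered transcripts are of nearly equal length. Over all coding transcripts, however, Ly6c1 had 1764 distinct runs of 50 bases and Ly6c2 had 817. The share was not corrected for this, and it covers only reads that could be assigned to 1 copy. An antibody to Ly-6C does not separate the copies, and protein was not measured in these libraries.

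**Figure D3:**
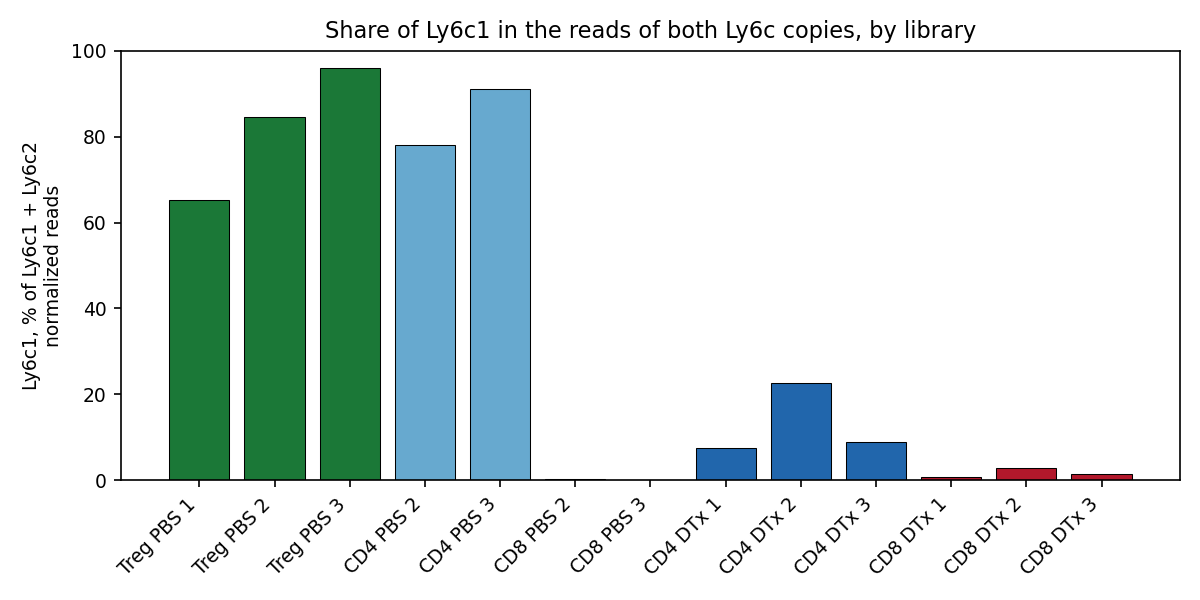
Share of Ly6c1 (vertical axis, percent of the normalized reads of Ly6c1 and Ly6c2 together) in each of the 13 libraries. The share was 65.2% or more in Treg PBS and CD4 PBS, at most 22.6% in CD4 DTx and at most 2.91% in the CD8 groups.

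CD8 lineage transcripts were set beside Ly6c2 in the CD4 libraries. In CD4 PBS 2 and 3, Cd8a stood at 0.122% and 0.103% of the CD8 PBS mean, Cd8b1 at 1.19% and 1.33%, and Ly6c2 at 5.18% and 1.85%. In CD4 DTx 1, 2 and 3, Cd8a stood at 0.256%, 1.77% and 3.24% of the CD8 DTx mean, Cd8b1 at 0.437%, 2.68% and 3.86%, and Ly6c2 at 14.1%, 5.06% and 9.48%. On this scale Ly6c2 stood above both CD8 transcripts in each library, by the least in CD4 PBS 3. In the CD8 DTx libraries Cd4 was at 1.56%, 0% and 0.152% of the CD4 DTx mean, and Ly6c1 was at 75.9%, 237% and 93.8%. The part of RNA from the other lineage in these levels was not tested.

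**Figure D4:**
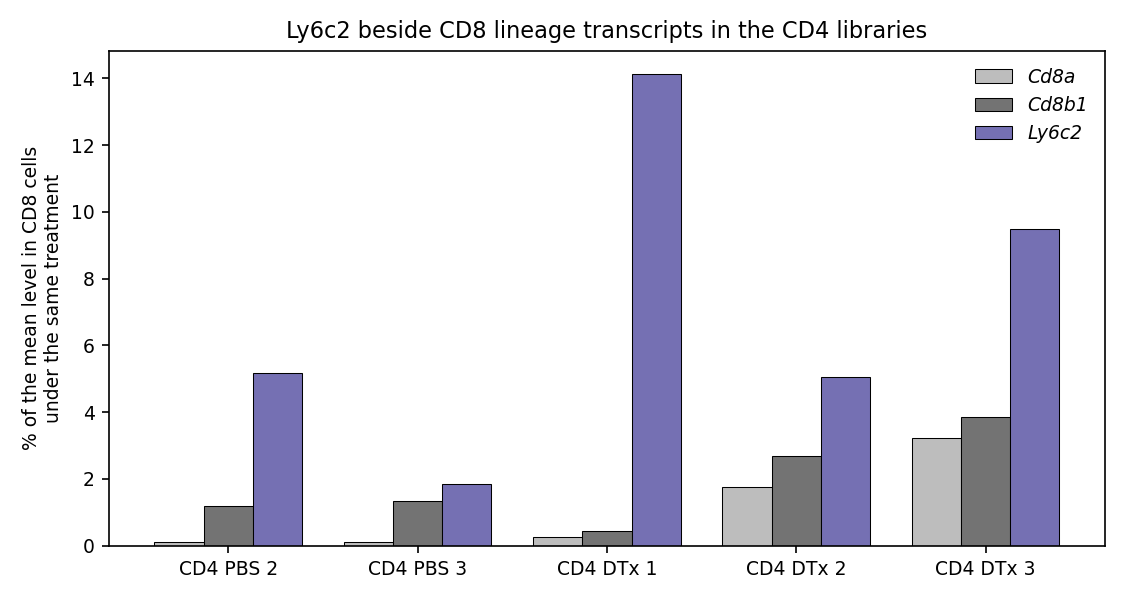
Level of Cd8a, Cd8b1 and Ly6c2 in the 5 CD4 libraries (vertical axis, percent of the mean in CD8 cells under the same treatment). Ly6c2 reached 14.1% in CD4 DTx 1, where Cd8a was at 0.256%, and stood above both CD8 transcripts in each library.

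Other cells that carry Ly-6C were checked through their markers. Of 10 monocyte and macrophage markers 9 were in the table, and their sum was between 15959 and 26006 in Treg PBS, CD4 DTx and CD8 DTx against 1229 to 4313 in CD4 PBS and CD8 PBS. Most of that sum was Ccr2, a chemokine receptor that activated T cells also carry, at 16241 ± 4978 in Treg PBS, 1235 ± 654 in CD4 PBS, 1454 ± 1265 in CD8 PBS, 22179 ± 641 in CD4 DTx and 21553 ± 1901 in CD8 DTx. Limma and edgeR called Ccr2 alone of that list in Treg PBS against CD4 PBS and in DTx against PBS, whereas DESeq2 called 4 in CD8 cells after DTx (Ccr2, Itgam and Cd68 higher, Lyz2 lower). Itgam was at 109 ± 136 in CD8 PBS and 1224 ± 617 in CD8 DTx, and Cd68 at 199 ± 106 and 899 ± 253. The CD4 DTx libraries 1, 2 and 3 held 55.2, 1063 and 652 of Lyz2, 12.2, 411 and 266 of Itgam, and 0, 376 and 0 of Adgre1, beside 8053, 2887 and 5406 of Ly6c2. Fcgr1 was at 0 in CD8 PBS and both DTx groups. The 7 neutrophil markers summed to between 11.2 and 667, and Ngp was at 0 in all groups but CD8 DTx. The 4 natural killer markers, which include the CD8 T cell factor Eomes, summed to 1947 to 4999 in CD8 PBS and 1463 to 8760 in CD8 DTx, and to at most 665 in the other groups. Klra8 of that list was at 0 in both CD4 Tconv groups, but Klrb1c and Ncr1 were not. CD4 DTx libraries 1, 2 and 3 held 444, 95.1 and 149 of Klrb1c, in the same order as Ly6c2. Ncr1, at 89.8, 115 and 26.3, did not follow that order. The CD4 PBS libraries 2 and 3 held 236 and 15.2 of Klrb1c, with Ncr1 at 38.3 and 30.4. Treg PBS libraries held at most 16.9 of Klrb1c and 1.18 of Ncr1. For DTx against PBS in CD4 cells limma, edgeR and DESeq2 called 0 of the 4 markers.

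Endothelial cells are known to carry Ly6c1. Of 8 endothelial markers 3 were in the table, and their sum was 7102 to 7457 in CD4 PBS, 3791 to 3972 in CD8 PBS and at most 2784 in the other groups, so it moved with Ly6c1 among the CD4 groups. Nearly all of it was Pecam1, an adhesion molecule that T cells also carry. Vwf was at 76.5 and Emcn at 90.2 in CD4 PBS 2, but at 5.9 and 4.0 in CD4 PBS 3, and Ly6c1 was alike in both (4210 and 4249). The 5 melanocyte markers in the table summed to between 64.5 and 1229, highest in Treg PBS. Dendritic markers summed highest in Treg PBS as well (20768 to 25641 against at most 3667), nearly all of it the antigen presentation chain Cd74. Clec9a was at 0 in all groups. Means in Treg PBS and CD4 PBS were 960 and 191 for H2-Aa, 442 and 46.9 for Zbtb46, and 310 and 47.8 for Xcr1. Xcr1 was higher still in CD4 DTx (502) and CD8 DTx (580). Between Treg PBS and CD4 PBS limma and edgeR called Cd74 and Xcr1, and DESeq2 called H2-Aa and Zbtb46 as well. The 5 B and plasma cell markers summed to between 92.6 and 1304, and Pdgfrb, the 1 fibroblast marker of 7, to at most 35.8. The 6 erythroid markers summed to 1663 and 11007 in CD4 PBS, and to 2881 and 11511 in CD8 PBS, each time higher in replicate 3. Their sum was 2948 to 5002 in Treg PBS and at most 1774 in the DTx groups. The part of any of these in the Ly6 levels was not tested.

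Ly6e had the smallest spread of means over the groups of the 4 members. Treg PBS libraries held 100260, 80564 and 79388 normalized reads. In PBS-treated mice it was at 33332 and 26607 in CD4 cells and at 33017 and 24914 in CD8 cells. CD4 DTx libraries held 76821, 56643 and 44686, and CD8 DTx libraries 63259, 77571 and 34207. Each DTx library was above the controls of its cell type, although CD8 DTx 3 was only just above the higher CD8 PBS library. Treg PBS lay above both DTx groups with no overlap.

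Means of Ly6e were 86737 ± 11726 in Treg PBS (n = 3), 29970 ± 4755 in CD4 PBS (n = 2), 28966 ± 5729 in CD8 PBS (n = 2), 59383 ± 16242 in CD4 DTx (n = 3) and 58346 ± 22096 in CD8 DTx (n = 3). The mean was 2.89 times higher in Treg PBS than in CD4 PBS, 1.98 times higher in CD4 DTx than in CD4 PBS and 2.01 times higher in CD8 DTx than in CD8 PBS. The log2 differences were 1.53 (SE 0.35), 0.96 (SE 0.35) and 0.94 (SE 0.35), all short of the 4-fold threshold. CD4 and CD8 cells overlapped in both treatments, with log2 differences of -0.05 (SE 0.39) in PBS and -0.07 (SE 0.32) in DTx.

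A gene was called when its limma adjusted p was under 0.05 and its fold above 4, over 12667 genes tested, all 4 members among them. Because the members had been chosen with these results known, nothing is read from their counts. Between Treg PBS and CD4 PBS, 1 member was called (Ly6a), beside 10.2% of all genes. For DTx against PBS in CD4 cells, 3 were called (Ly6a, Ly6c1 and Ly6c2), beside 6.85%. For DTx against PBS in CD8 cells, 2 were called (Ly6a and Ly6c1), beside 5.46%. Between CD8 PBS and CD4 PBS, 2 were called (Ly6c1 and Ly6c2), beside 0.908%. Ly6c2 alone was called between CD8 DTx and CD4 DTx (1% of all genes), between CD4 DTx and Treg PBS (4.01%) and between CD8 DTx and Treg PBS (4.93%). For the difference of the DTx effects between CD4 and CD8 cells, Ly6c1 was called, 1 of 6 genes or 0.0474%. These comparisons share groups, the first 2 the CD4 PBS libraries among them, and are not independent of each other.

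Treg PBS and CD4 PBS did not overlap for 4 members (56.7% of all genes did not). DTx and PBS did not overlap for 4 members in CD4 cells (46.3% of all genes) and for 4 in CD8 cells (43.6%). In PBS-treated mice CD8 and CD4 cells did not overlap for 3 (42.4%). Between CD8 DTx and CD4 DTx 1 member did not overlap (13.9%), and 2 did not between CD4 DTx and Treg PBS (25.4%) and between CD8 DTx and Treg PBS (22.6%). Several calls were lost when single libraries were left out. Without CD4 PBS 3 the difference of Ly6c2 of CD4 DTx to CD4 PBS was 2.09 and the call was lost. The call of Ly6c1 there was lost without CD4 PBS 2 (-2.68) or CD4 PBS 3 (-2.67), with the size of the difference nearly the same. Leaving out either left CD4 PBS with 1 library. Without CD4 PBS 3 the call of Ly6c2 between CD8 and CD4 cells of PBS-treated mice was lost as well, at a difference of 4.27. After DTx that call was lost without CD4 DTx 2 (3.06), CD8 DTx 1 (3.22) or CD8 DTx 2 (3.48). The call of Ly6c1 for the difference of the DTx effects was lost without CD4 PBS 2 (-6.99) or CD4 PBS 3 (-6.98), each time with the size of the difference nearly the same. Between Treg PBS and CD4 PBS, Ly6c1 and Ly6c2 sat at the 4-fold threshold, and 2 or 3 members were called without single Treg PBS libraries or without CD4 DTx 1.

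Replicate 3 stood low for part of the family. Xist and Ddx3y divided the libraries into 8 female and 5 male, and the male ones were replicate 3 of each group, so sex and replicate number cannot be told apart. Ly6a and Ly6e were lowest in replicate 3 of all 5 groups, 2 of 4 members beside 4.61% of all genes. With sex as a term, male libraries differed from female ones by -0.81 (SE 0.15) for Ly6a, -0.52 (SE 0.16) for Ly6e, -0.84 (SE 0.36) for Ly6c2 and -0.33 (SE 0.35) for Ly6c1 on the log2 scale. At adjusted p alone limma called 0.111% of all genes (14 genes) between male and female libraries, and none of the 4 members was among them. At an unadjusted p under 0.05 limma gave 3 of the 4 members and 2533 of the 12667 genes. The differences between groups kept their direction with that term.

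For each member the genes with the most similar levels were taken by Pearson's r of log2(value + 1) over the 13 libraries. The libraries form 5 groups and share their depths, so r mostly reflects the group means. The genes nearest to Ly6a were 2210011C24Rik (r = 0.976), Pkp3 (0.972), Socs2 (0.970), Sc5d (0.968) and Casp4 (0.964). Socs2, a feedback inhibitor of cytokine signalling, had means of 1457 in Treg PBS, 118 in CD4 PBS, 48.7 in CD8 PBS, 1712 in CD4 DTx and 805 in CD8 DTx. Among those nearest to Ly6e were Ccdc109b (0.971), the inhibitory receptor gene Tigit (0.964), Asl (0.963) and Ergic3 (0.961).

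The genes nearest to Ly6c2 were Epsti1 (r = 0.966), Snai3 (0.962), Klrd1 (0.958), Lcn4 (0.952) and Klre1 (0.952). Klrd1 encodes CD94, a killer lectin-like receptor, and had means of 26.0 in Treg PBS, 411 in CD4 PBS, 5136 in CD8 PBS, 1662 in CD4 DTx and 9855 in CD8 DTx. Ly6c1 had no gene as close, with Irak3 (0.852), Zbtb7b (0.847), Mfsd4b5 (0.844), Myo10 (0.820) and Flot2 (0.819) nearest. Zbtb7b, the CD4 lineage factor ThPOK, had means of 1159 in CD4 PBS, 944 in CD4 DTx, 555 in Treg PBS, 7.90 in CD8 PBS and 195 in CD8 DTx. Among the members r was 0.85 for Ly6a with Ly6e and -0.49 for Ly6c1 with Ly6c2.

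The gene lists that follow were chosen with earlier results of these data known. Adjusted p-values printed for their genes therefore describe the fit and give no independent support. Of 36 other genes of the LY6/uPAR family, 10 were in the table and all 10 were tested. After DTx in CD4 cells 1 rose and 3 fell by limma, beside 5.06% and 1.79% of all genes, with a median log2 change of -2.02 against -0.04 over all genes. In CD8 cells 1 rose and 2 fell, beside 3.87% and 1.59% of all genes, with a median of -2.18 against -0.03. DESeq2 called 5 of the 10 in CD4 and 6 in CD8 cells. The gene that rose was Ly6g5b, from 197 and 33.7 in CD4 PBS to 2205, 1067 and 1050 in CD4 DTx (log2 change 4.03, SE 0.69, limma adjusted p = 0.00239). In CD8 cells it rose from 226 and 65.3 to 1299, 925 and 685 (log2 change 2.94, SE 0.69, limma adjusted p = 0.0186).

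Plaur, the urokinase receptor, fell in both cell types. It went from 137 and 172 to 40.2, 7.2 and 4.0 in CD4 cells (log2 change -3.70, limma adjusted p = 0.0179), and from 276 and 280 to 21.2, 9.6 and 13.5 in CD8 cells (-4.21, 0.0116). Lypd6b, an LU domain gene outside the Ly6 cluster, fell from 1167 and 1036 in CD4 PBS to 83.2, 18.4 and 34.2 in CD4 DTx (log2 change -4.83, limma adjusted p = 0.0279). Its Treg PBS libraries were at 29.6, 0 and 0, and the Treg PBS group was lower than CD4 PBS (log2 difference -8.46, limma adjusted p = 0.000709). Ly6k fell from 118 and 172 to 18.7, 10.2 and 0 in CD4 cells (-4.57, 0.0129). Bambi, a decoy receptor of the TGF-beta family, fell in CD8 cells from a mean of 282 to 9.49 (-4.73, 0.0461), from libraries at 47.4 and 517.

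Ly6i, whose coding sequence is closest to Ly6a, was higher in Treg PBS (51.7, 21.7 and 29.4) than in CD4 PBS (1.4 and 2.0, that is 1 and 3 reads), with a limma adjusted p of 0.0391, but was not called by edgeR. Cd59a, the GPI-anchored complement inhibitor, was at 134, 116 and 109 in Treg PBS and at 9.2, 1.0 and 2.7 in CD8 DTx (log2 difference of CD8 DTx to Treg PBS -4.84, limma adjusted p = 0.0350, not called by edgeR). Ly6d, Lynx1 and 2010109I03Rik, an older name of Ly6m, were called in no comparison by limma, edgeR or DESeq2, and Lynx1 and 2010109I03Rik gave values that overlapped between CD8 PBS and CD4 PBS. None of the 10 was called between CD8 and CD4 cells in PBS or in DTx by limma, where unadjusted p was under 0.05 for 0 and 1 of them, and edgeR and DESeq2 also called 0.

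**Figure D5:**
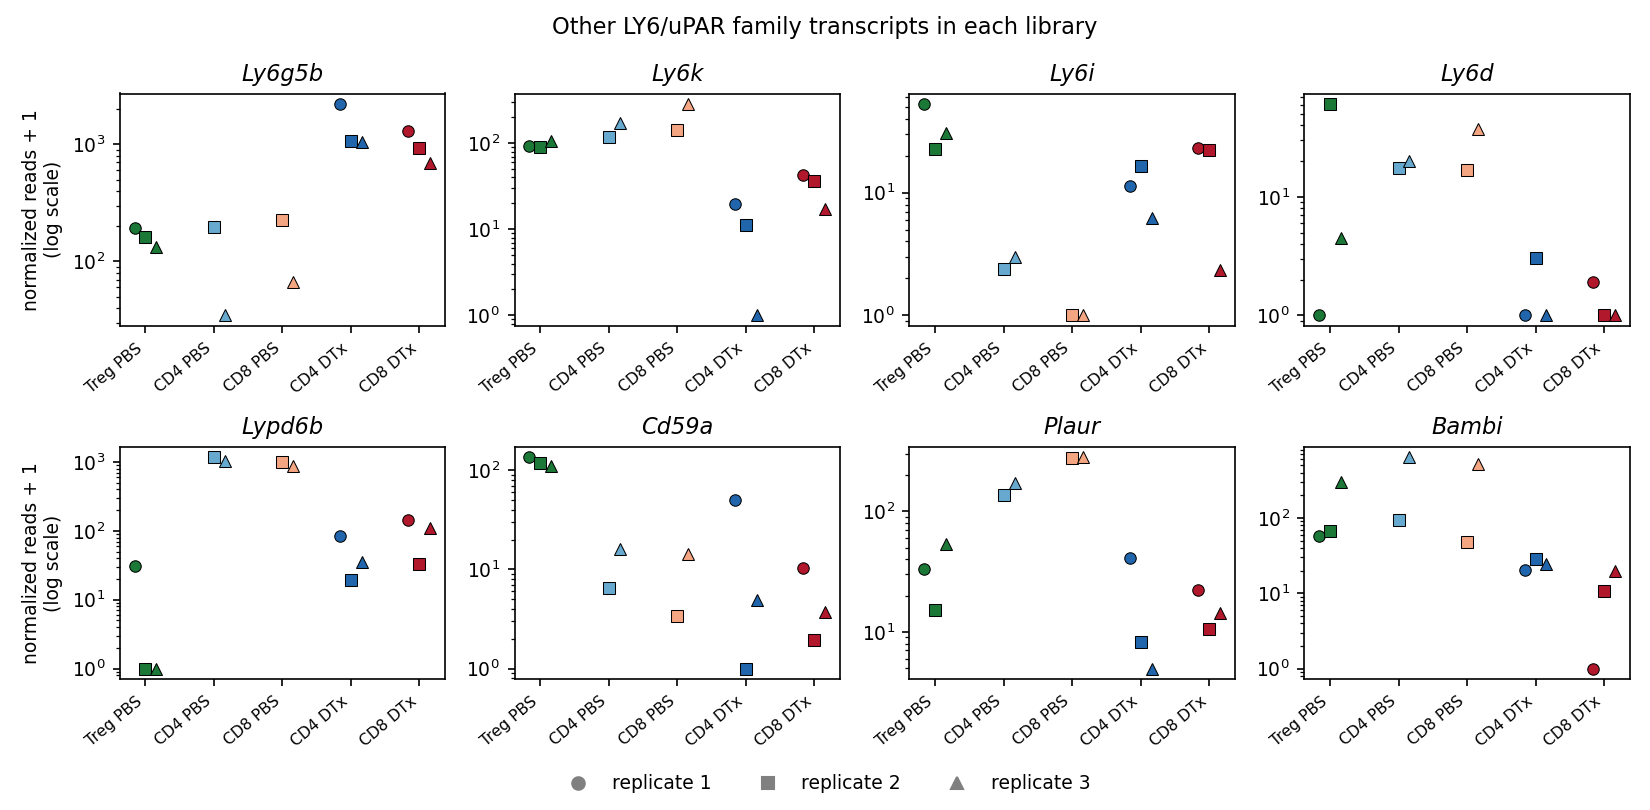
Normalized reads plus 1 (vertical axes, log scale) of 8 other LY6/uPAR family genes in the 13 libraries, with the symbol giving the replicate number. Ly6g5b was higher in all DTx libraries than in the PBS-treated groups, whereas Lypd6b and Plaur were at their highest in CD4 PBS and CD8 PBS.

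Few genes of the machinery that makes the GPI anchor passed the test. Of 28 genes for anchor synthesis and attachment, limma called 0 in CD4 DTx against CD4 PBS and 0 in CD8 DTx against CD8 PBS, with 1 and 6 at an unadjusted p under 0.05 and 0 called by edgeR or DESeq2. The medians were 0.09 and 0.18 on the log2 scale. Between Treg PBS and CD4 PBS 9 of the 28 were at a limma unadjusted p under 0.05. Pigz, which adds a side mannose to the anchor, was the 1 gene of the list called there. It was at 128, 177 and 70.6 in Treg PBS and listed at 0 in all 10 other libraries (limma adjusted p = 0.000611 against CD4 PBS).

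Other GPI-anchored proteins of lymphocytes did not move as one. Of 13 tested, 4 were higher in Treg PBS than in CD4 PBS, beside 7.85% of all genes. After DTx 1 rose in CD4 cells, beside 5.06% of all genes, and 2 rose in CD8 cells, beside 3.87%. Prnp, the prion protein, rose in both, from 127 and 61.4 to 703, 1060 and 974 in CD4 cells (log2 change 3.33, SE 0.41, limma adjusted p = 0.000289) and from 38.9 and 54.7 to 298, 541 and 362 in CD8 cells (3.05, SE 0.41, 0.00114). Sema7a, a GPI-anchored semaphorin, was at 0 in both CD8 PBS libraries and at 37.0, 46.2 and 141 in CD8 DTx (limma adjusted p = 0.00427). Nt5e, which encodes CD73, was higher in Treg PBS than in CD4 PBS (7167 against 1004, log2 difference 2.80, limma adjusted p = 9.08e-05), as was Izumo1r, which encodes folate receptor 4 (8753 against 1826, log2 difference 2.21, adjusted p = 0.0137). Cd160 followed the CD8 lineage as Ly6c2 did, at 1748 in CD8 PBS against 108 in CD4 PBS and at 5331 in CD8 DTx against 235 in CD4 DTx (log2 difference 4.52 in the latter).

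Interferon targets were examined because Ly6 genes are known to respond to interferons. Of 20 targets limma called 0 after DTx in CD4 cells and 0 in CD8 cells, with 8 and 3 at an unadjusted p under 0.05. edgeR called 0 in each and DESeq2 called 1 in each. The median log2 changes were 0.72 and 0.71, against -0.04 and -0.03 over all genes. Mx1, an antiviral GTPase, and Ifi27l2a had the largest differences in CD4 cells, at 2.35 (limma adjusted p = 0.113) and 1.79 (0.0828). In CD8 cells they were the chemokine Cxcl10 and Ifi44, at -2.14 (limma adjusted p = 0.267) and -1.60 (0.540), against the direction of the median. For both of these CD8 DTx and CD8 PBS libraries overlapped, and Cxcl10 was at 98.4 and 1012 in CD8 PBS. Between Treg PBS and CD4 PBS 4 targets were called, all higher in Treg cells, beside 7.85% of all genes. Gbp3, a guanylate-binding protein, was at 6651, 5086 and 3873 in Treg PBS against 667 and 782 (log2 difference 2.81, SE 0.23, limma adjusted p = 1.86e-05), and Iigp1, Oas1a and Ifi27l2a had log2 differences of 2.60, 2.15 and 2.08.

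Of 14 genes of interferon receptors and signalling, both chains of the interferon-gamma receptor passed the test in Treg PBS against CD4 PBS. Ifngr1 was higher in Treg PBS than in CD4 PBS (60399 against 11763, log2 difference 2.35, limma adjusted p = 0.000463). Ifngr2 went the other way there (372 against 2096, log2 difference -2.52, adjusted p = 0.0434). In CD8 cells Ifngr2 fell from 645 and 1413 to 19.4, 47.2 and 12.1 after DTx (log2 change -5.35, limma adjusted p = 0.00186). In CD4 cells its difference of -2.45 was not called (adjusted p = 0.0666), nor was that of 1.89 for Ifngr1, which was under the 4-fold threshold.

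Markers used beside Ly-6C or Sca-1 to sort memory and effector T cells changed in both cell types. Of 13 such genes 4 rose and 3 fell after DTx in CD4 cells, beside 5.06% and 1.79% of all genes. In CD8 cells 4 rose and 3 fell, beside 3.87% and 1.59%. Ccr7, a chemokine receptor of naive and central memory cells, fell in CD4 cells, with a log2 change of -4.49 (limma adjusted p = 0.00102). In CD8 cells it fell too, with a log2 change of -4.37 (limma adjusted p = 0.00217). Klrg1, a receptor of effector cells, rose by 3.35 in CD4 and by 4.60 in CD8 cells (limma adjusted p = 0.00349 and 0.00114). Tbx21, which encodes T-bet, rose by 3.24 in CD4 cells, from 681 and 347 to 3983, 4220 and 5764 (limma adjusted p = 0.0005). Cx3cr1, a chemokine receptor of effector CD8 cells, rose by 3.91 in CD8 cells, from 605 and 165 to 3305, 9946 and 3318 (limma adjusted p = 0.00239).

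In Treg PBS against CD4 PBS, 4 of these 13 genes were higher and 4 lower, beside 7.85% and 2.35% of all genes. Klrg1 (9647 against 95.8), Cxcr3 (20413 against 2226) and the receptor tyrosine kinase Kit (150 against 13.5) were higher, with log2 differences of 6.64, 3.27 and 4.51. Tcf7, which encodes TCF-1, was lower (2408 against 59627, log2 difference -5.16, limma adjusted p = 0.000356). Il2rb, a chain of the interleukin-2 and interleukin-15 receptors, was the 1 gene of the list called between CD8 PBS and CD4 PBS (18559 against 4039, log2 difference 2.25, limma adjusted p = 0.0150). The part of these other changes in the Ly6 levels was not tested.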

How the data were processed

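RNA was sequenced from 13 libraries of T cells sorted from tumors (5 groups, taken from the cell type, treatment and title given in the labels). Per the labels and the study's methods, reads were trimmed with cutadapt, aligned with hisat2 to NCBIM37 (mm9), and counted per gene where they mapped uniquely; the read counter, strand setting, read length and gene filter are not given in the sources used here. The authors deposited a normalized signal per gene and library. All values were whole multiples of 1 step per library (to within 0.01 of a read), so whole reads could be recovered. Floors cover counting error only, since no molecular identifiers are mentioned. Depths were 15947556 to 34140486 reads.

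Genes with at least 10 in at least 2 libraries (12667) were fitted with limma 3.58.1 in R 4.3.3 on log2(value + 1), with 1 mean for each group and all 13 libraries in the fit, and adjusted by Benjamini-Hochberg. That scale understates changes of low genes. Genes were called at adjusted p under 0.05 and a log2 change above 2. Alternatives were edgeR 4.0.16 and DESeq2 1.42.0 on the recovered reads, other filters, pseudocounts and scalings, a replicate block, each library left out, and sex as a term, the last chosen after seeing the data. The scripts were tested on simulated data. The members and the lists were chosen with earlier results of these data known, so the adjusted p-values of list genes are descriptive. The lists were other LY6/uPAR genes, anchor synthesis, other anchored proteins, interferon signalling and targets, memory markers, and cell type markers. Up to 4 called genes of a list with the largest change were eligible to be named, or 2 where none was called, and some of their values in other groups were given alongside; Zbtb7b, Klrd1, Socs2, Ly6d, Lyz2 and the other marker genes were singled out after their values were seen. Sequences were aligned with Biopython 1.88. They come from GRCm38, not from the build of the authors, so no other coordinates are given.

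Libraries of a group differed by more than counting error (chi-square 43.5 to 244 times its degrees of freedom) and were kept as separate samples. Same-numbered libraries deviated together between CD8 DTx and CD4 DTx (correlations of deviations 0.360, 0.207 and 0.590). The differences and SE given for that comparison nevertheless come from the fit without pairs. A replicate block was run only as an alternative. Replicates were isolated on independent days, but no source used here says that a number marks the same day in different groups. The 21 rows whose symbols had become dates were not named, and some genes that the naming rule picked are not reported here.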

Additional observations from a re-analysis of the deposited data

Results flagged for a closer look

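Ly6c1 was singled out because the DTx effect went opposite ways in the 2 cell types. All 3 CD4 DTx libraries were below both CD4 PBS libraries, and all 3 CD8 DTx libraries were above both CD8 PBS libraries. The log2 change was -2.67 in CD4 and 4.31 in CD8 cells, and the difference between them was -6.99 (SE 0.79). The gene had been proposed with this pattern known, so no p-value is given for it. CD4 and CD8 libraries started 95.7 times apart in PBS and overlapped after DTx. Groups of 2 and 3 libraries are too small for a check of single outlying libraries.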

How the results depend on the processing

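Counts of members called stayed within 1.5 times under 176 of 192 alternatives, taken over 8 comparisons. That share overstates stability. Many alternatives left out a library of a group outside the comparison, which cannot move the difference itself. A fall from 3 to 2 members also counts as within 1.5 times. Between Treg PBS and CD4 PBS, where 1 member was called, 2 were called with a minimum of 50 normalized reads, 3 by adjusted p alone, 3 with TMM rescaling, 2 with a replicate block (Ly6c2 added, at a log2 difference of -2.37) and 3 with sex as a term. Ly6c1 and Ly6c2 lay at the threshold there. Deviations of same-numbered libraries correlated at 0.099 and 0.102 over these groups, with 2 pairs only. The main fit paired libraries in no comparison. Leaving out single libraries gave 1 to 3 members for Treg PBS against CD4 PBS. It gave 1 to 3 for CD4 DTx against CD4 PBS (1 without CD4 PBS 3), 1 to 2 for CD8 PBS against CD4 PBS (1 without CD4 PBS 3), 0 to 1 for CD8 DTx against CD4 DTx (0 without CD4 DTx 2, CD8 DTx 1 or CD8 DTx 2) and 0 to 1 for the difference of DTx effects (0 without either CD4 PBS library). Groups left with 1 library were assumed to vary like the others. The replicate block changed no other count.

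Direction turned 11 times, all for differences that were not called. Ly6e between CD8 PBS and CD4 PBS became 0.11 without CD4 PBS 2 and 0.15 without CD8 PBS 3 (range -0.26 to 0.15 with single libraries left out). Between CD8 DTx and CD4 DTx Ly6e became 0.13 without CD4 DTx 1 and 0.27 without CD8 DTx 3 (range -0.32 to 0.27), and Ly6c1 became -0.22 without CD8 DTx 2 (range -0.22 to 0.60). The difference of DTx effects for Ly6e became -0.020 by edgeR, -0.013 by DESeq2, -0.15 without CD4 PBS 3, -0.19 without CD8 PBS 2, -0.19 without CD4 DTx 1 and -0.33 without CD8 DTx 3 (range -0.33 to 0.26). The causes were not tested. The shares of Ly6c1 and Ly6c2 do not change with scaling. Depth limits mainly Ly6c1 in CD8 PBS, which rested on 53 and 18 reads, and Ly6c2 in Treg PBS 3, which rested on 49. Without Treg PBS 3 the log2 difference of Ly6c2 between Treg PBS and CD4 PBS was -1.26, against -2.03 with all libraries.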
